A study of Homo sapiens with 18 samples.

Results

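The 10 genes followed here were ATF4, ATF5, DDIT3, TRIB3, CHAC1, ASNS, SESN2, PPP1R15A, DDIT4 and VLDLR, members of the integrated stress response. They were chosen by name, with earlier results of these data known. They are 10 of the 26485 gene symbols counted, and all 10 were among the 12832 genes with enough reads to be tested. The study measured mRNA by RNAseq in SW620 cells, a line grown from a human colon cancer, to ask how silencing of the mitochondrial protease Lonp1 bears on the response to heat. Cells received a scramble siRNA or an siRNA against Lonp1 (siLonp1), and each siRNA arm was split into 3 conditions. Ctrl cells stayed at 37 °C and HS cells spent 1 h at 42 °C, while HS+REC cells had the same heat and 1 h of recovery at 37 °C after it. Each of the 6 groups had 3 libraries, giving 18 in all. No group was left untransfected, so a scramble siRNA is shared by all controls. All cells came from 1 line, and the paper describes the libraries of a group as independent biological replicates. Which of the Lonp1 siRNA sequences served for RNAseq is not given in the sources used here.

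In the integrated stress response, a set of kinases that sense misfolded protein, amino acid shortage, viral RNA or haem shortage phosphorylate the translation initiation factor eIF2 on its alpha subunit. Most protein synthesis then slows, while a few mRNAs with short upstream reading frames, ATF4 among them, are translated more. ATF4 protein switches on genes for amino acid supply and for feedback, and DDIT3, which encodes CHOP, works with it under longer stress. Stress in mitochondria can feed into the same pathway through the protease OMA1, the protein DELE1 and a haem-sensing kinase. Because ATF4 and ATF5 are controlled largely at translation, their mRNA counts do not measure how much of the protein was made.

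Promoters were searched for the core of the element bound by ATF4 with a C/EBP partner, and the matching stretches are shown because this is the sequence through which ATF4 acts on its targets. RefSeq promoter windows of GRCh38.p14, from 250 bases before to 50 bases after each gene start, were at hand for 10 of the 10 genes, in 17 windows. TGATGNAA, read on both strands, occurred in the windows of 2 of them, ASNS and CHAC1. It occurred in 3.62% of all 35116 windows and in the windows of 4.46% of 27305 genes. The matching bases are in capitals.
ASNS: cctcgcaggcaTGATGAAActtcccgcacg
CHAC1: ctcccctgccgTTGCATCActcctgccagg
The ASNS stretch is chr7:97872458-97872487 on the minus strand, with the match 68 bases before the RefSeq start. The CHAC1 stretch is chr15:40953251-40953280 on the plus strand, with the match in the reverse orientation 209 bases before the start. Both overlap the first exon of a longer transcript of the same gene in the GENCODE annotation of hg38. A heat shock element, taken as at least 3 GAA units in alternating orientation and 2 bases apart, was found in the windows of 0 of the 10 genes and of 0.608% of all genes. These are matches of letters within a short window, and elements that lie elsewhere were not searched for.

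Library totals ran from 30815860 to 47279297 counts, and the fewest reads behind any value of the 10 genes were 133, for VLDLR. LONP1, the targeted gene, stood at 221 ± 5.56 CPM (counts scaled to library size; SD, n = 3) in Ctrl scramble cells and at 20.4 ± 1.75 CPM in Ctrl siLonp1 cells. In siLonp1 cells it stood at 11.7 ± 0.154 CPM in HS and at 27.2 ± 1.64 CPM in HS+REC, the lowest of the 3 conditions being HS. LONP1 lies opposite RPL36, at 476 CPM, so reads of that gene cannot be told apart from what was left of LONP1. All 6 colon epithelial markers were detected in every library (KRT8 at 4418 to 6397 CPM, CDX2 at 9.97 to 30.6 CPM). Of 8 markers of other cell types, INS was at 0, PTPRC had at most 3 counts and CD3E at most 2, whereas COL1A1 (8.0 to 34.6 CPM) and CD68 (10.7 to 18.1 CPM) were detected. Their summed level moved with the treatments, from 20.5 to 23.1 CPM in Ctrl scramble libraries to 47.4 to 52.2 CPM in HS+REC siLonp1 libraries, and its part in the results was not tested. The HS+REC siLonp1 group was the most variable one for the 10 genes. Its median coefficient of variation was 12.4%, against 5.90% to 9.48% in the other 5 groups, and its replicate 3 gave the lowest value of the group for 9 of the 10 genes. In bulk RNA, fewer cells of a kind and less of an mRNA per cell cannot be told apart.

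**Figure D1:**
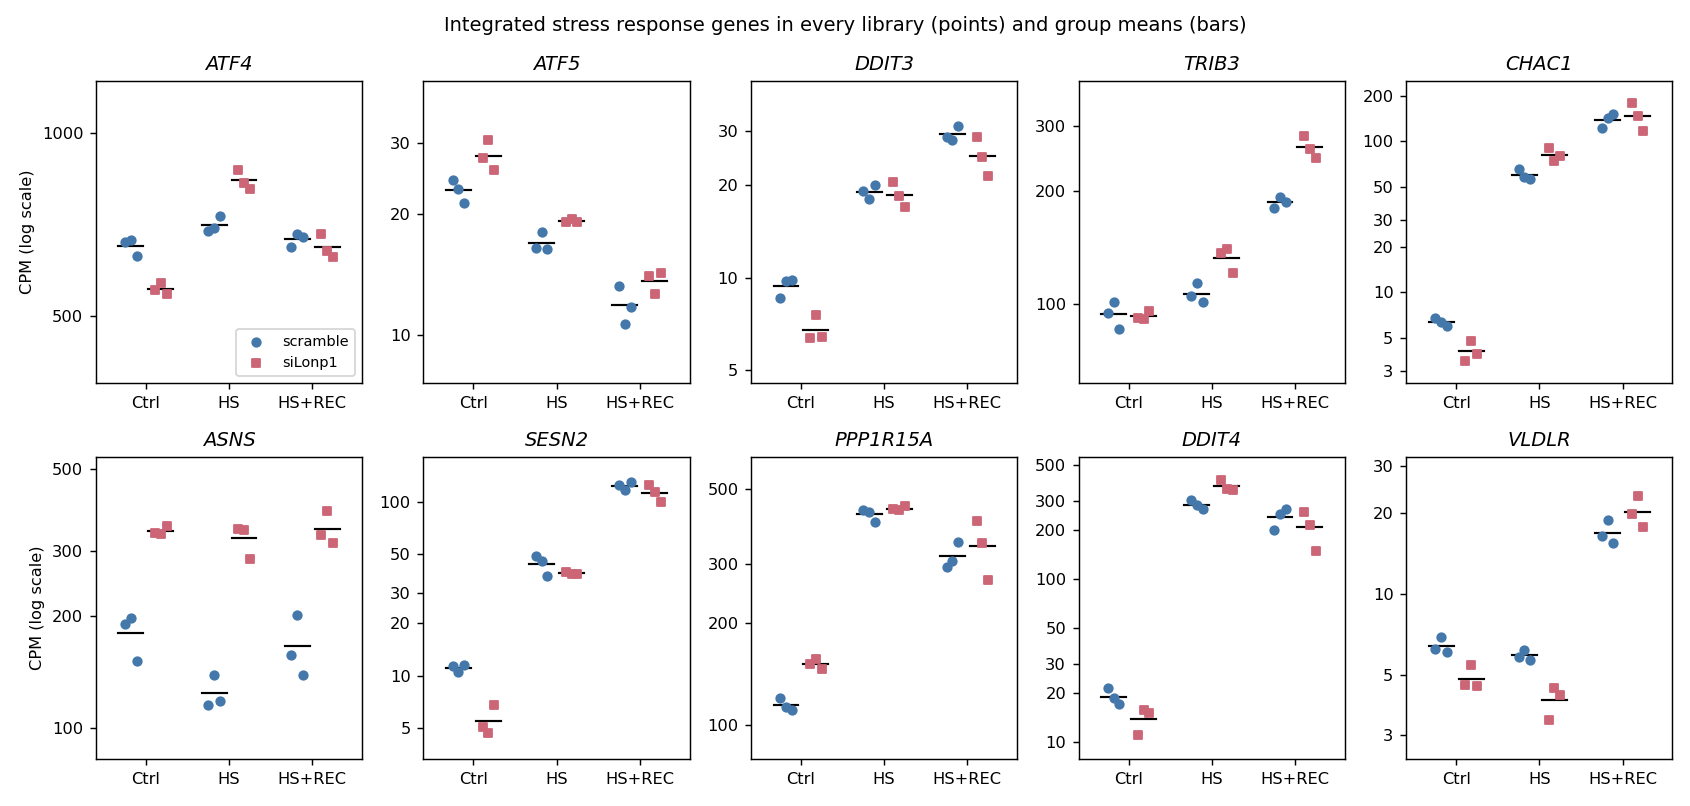
Level of each of the 10 genes in CPM on a log axis that differs between panels, by condition; points and squares are single libraries of scramble and siLonp1 cells, and black bars are means of 3 libraries. CHAC1 went from 6.33 to 59.6 and 138 CPM and SESN2 from 11.1 to 44.1 and 125 CPM in scramble cells, DDIT4 and PPP1R15A were highest in HS, and every siLonp1 library lay above every scramble library for ASNS.

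Heat raised 5 of the 10 genes by 2.03-fold or more in scramble cells. The cell death and glutathione gene CHAC1 rose 9.43-fold, the mTORC1 inhibitors DDIT4 and SESN2 rose 15.1-fold and 3.97-fold, the eIF2 phosphatase subunit PPP1R15A rose 3.65-fold, and DDIT3 rose 2.03-fold within 1 h. In all, 6 of the 10 rose and 2 fell (ATF5 and ASNS), where 18.6% and 17.3% of all genes tested rose and fell at a Benjamini-Hochberg adjusted p of at most 0.05. The sixth rise was TRIB3, at 1.14-fold, and without its call, which library size scaling does not give, 5 of the 10 rose. The median of the 10 log2 fold changes was 0.60, and that of all genes was -0.01. In siLonp1 cells, 7 rose and 1 fell with HS, against 20.2% and 22.1% of all genes, with a median of 1.02.

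After recovery most of the 10 genes stood above Ctrl. In HS+REC scramble cells 7 of the 10 were above Ctrl and 1, ATF5, was below it, against 21.8% and 20.5% of all genes, with a median log2 fold change of 1.42. In siLonp1 cells 8 were above and 1 below, against 24.6% and 26.6% of all genes, with a median of 1.69. Scaling by library size alone, in place of the trimmed mean scaling (TMM), lowered the share of rises among all genes called from 51.5% to 34.9% in scramble cells and from 48.0% to 35.1% in siLonp1 cells. The counts for the 10 genes in HS+REC against Ctrl were the same under that scaling. Without HS+REC scramble replicate 2, ASNS also passed as below Ctrl in scramble cells (-0.28, adjusted p 0.0487), which made 2 below.

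From HS to HS+REC the genes parted. In scramble cells 6 rose and 2 fell, against 14.2% and 12.7% of all genes, and in siLonp1 cells 5 rose and 4 fell, against 16.3% and 15.6%. The rises in scramble cells included ASNS, which had fallen with HS, and VLDLR, which had not been called with HS. DDIT3, TRIB3, CHAC1, SESN2 and VLDLR rose in both arms, whereas ATF5 and PPP1R15A fell in both. DDIT4 and ATF4 fell in siLonp1 cells, and in scramble cells their changes were -0.26 ± 0.14 and -0.08 ± 0.05 on the log2 scale (± SE), neither of which passed the test. The share of rises among all genes called in scramble cells was 52.7%, and 36.3% by library size alone. With that scaling ATF4 also passed as fallen in scramble cells, at -0.13 and an adjusted p of 0.0403. DDIT4 passed as fallen in scramble cells with no filter on low counts, at -0.26 and an adjusted p of 0.0106. HS and HS+REC are compared here with the same Ctrl libraries, so the changes from Ctrl are not independent of each other.

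**Figure D2:**
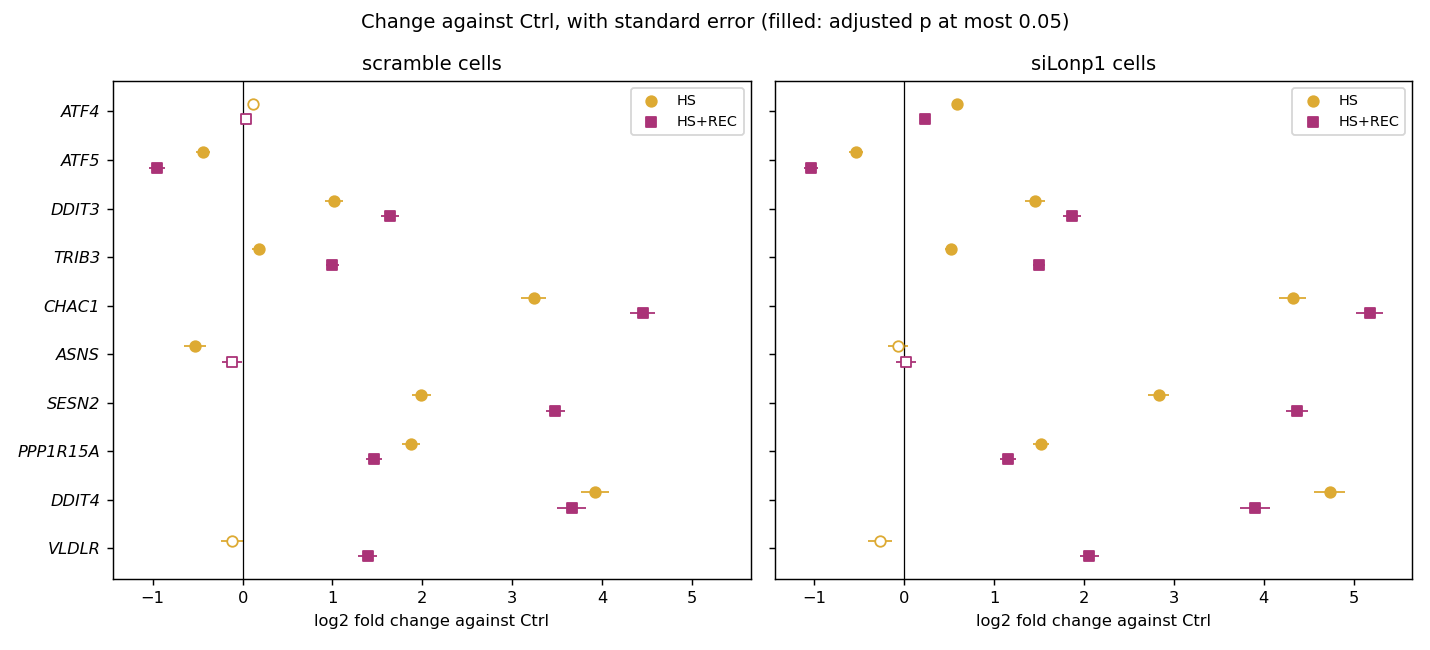
Change of each gene from Ctrl on the log2 scale in scramble cells (left panel) and siLonp1 cells (right panel); circles are HS, squares HS+REC, lines the standard error, and filled symbols an adjusted p of at most 0.05. CHAC1, SESN2, DDIT3 and TRIB3 lay farther right after recovery than after HS in both panels, DDIT4 and PPP1R15A farther left, and VLDLR passed the test only in HS+REC.

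ATF4, the central transcription factor of the pathway, is a small gene at chr22:39519695-39522683. It was the most abundant of the 10 by transcript length, at 460 CPM per kilobase of transcript in Ctrl scramble cells, where VLDLR stood at 0.700. Scramble libraries held 662, 667 and 628 CPM in Ctrl, 691, 698 and 731 CPM in HS, and 651, 682 and 676 CPM in HS+REC. The HS libraries lay above the others, but by 0.12 ± 0.05 on the log2 scale, with an adjusted p of 0.0860. It passed when genes needed over 1 CPM in all libraries (0.14, adjusted p 0.0387). siLonp1 libraries held 552, 567 and 544 CPM in Ctrl, 869, 828 and 810 CPM in HS, and 684, 641 and 625 CPM in HS+REC. Here the groups were all separate, with a 1.51-fold rise by HS (0.59 ± 0.05, adjusted p 2.08e-09) and a fall from HS to HS+REC of -0.36 ± 0.05 (adjusted p 6.20e-06). Ordered by mean, the 6 groups spanned 554 to 836 CPM, and the 3 in the middle (HS+REC siLonp1, Ctrl scramble and HS+REC scramble) overlapped.

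ATF5, at chr19:49928702-49933935, encodes a factor related to ATF4 that has been linked to the mitochondrial unfolded protein response. It went down while most of the others went up. Scramble libraries stood at 24.3, 23.1 and 21.2 CPM in Ctrl, 16.4, 18 and 16.3 CPM in HS, and 13.2, 10.6 and 11.7 CPM in HS+REC, with no overlap between conditions. siLonp1 libraries stood at 27.5, 30.5 and 25.7 CPM in Ctrl, 19.1, 19.4 and 19.1 CPM in HS, and 14.0, 12.6 and 14.2 CPM in HS+REC, again without overlap. The fall from Ctrl to HS was -0.44 ± 0.08 in scramble and -0.54 ± 0.08 in siLonp1 cells, and from HS to HS+REC it was -0.52 ± 0.09 and -0.50 ± 0.09 on the log2 scale, with adjusted p between 1.10e-05 and 0.000225. The gene lies opposite NUP62, at 131 CPM over all libraries, and without the strand setting of the counting the reads of the pair cannot be told apart.

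DDIT3, at chr12:57516588-57521737, encodes CHOP, a factor tied to cell death when stress persists. Scramble libraries rose from 8.56, 9.72 and 9.83 CPM in Ctrl to 19.1, 18 and 19.98 CPM in HS and 28.6, 28.0 and 31.0 CPM in HS+REC. The siLonp1 libraries rose from 6.36, 7.56 and 6.41 CPM in Ctrl to 20.4, 18.4 and 16.9 CPM in HS and 28.7, 24.6 and 21.3 CPM in HS+REC. Within each arm the 3 conditions did not overlap. The changes from Ctrl were 2.03-fold in HS and 3.12-fold in HS+REC in scramble cells, and 2.74-fold and 3.67-fold in siLonp1 cells, all with adjusted p of 2.58e-08 or less. DDIT3 lies opposite MBD6, at 61.3 CPM, and the MARS1 gene, so part of its reads is uncertain in the same way.

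Both feedback inhibitors of the pathway went up, and in both arms the highest mean was in HS+REC for TRIB3 and in HS for PPP1R15A. TRIB3, at chr20:362835-397559, encodes a pseudokinase that binds and restrains ATF4 and CHOP. Its scramble libraries held 94.3, 101 and 85.9 CPM in Ctrl, 105, 114 and 101 CPM in HS, and 181, 193 and 187 CPM in HS+REC. The Ctrl and HS libraries overlapped, with a change of 0.18 ± 0.07 on the log2 scale (adjusted p 0.0428) that lost its call by library size alone (adjusted p 0.0756) and without Ctrl scramble replicate 1 (0.0875), Ctrl scramble replicate 3 (0.231), HS scramble replicate 1 (0.0770) or HS scramble replicate 2 (0.204). The siLonp1 libraries held 91.9, 90.9 and 95.6 CPM in Ctrl, 137, 140 and 121 CPM in HS, and 282, 259 and 246 CPM in HS+REC, all apart. After recovery TRIB3 was 1.99-fold above Ctrl in scramble and 2.83-fold above it in siLonp1 cells (adjusted p 4.56e-11 and 2.55e-14).

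PPP1R15A, at chr19:48872212-48876059, encodes GADD34, which brings a phosphatase to eIF2 and ends the translational block. Scramble libraries held 120, 113 and 111 CPM in Ctrl, 433, 427 and 397 CPM in HS, and 293, 306 and 347 CPM in HS+REC. In siLonp1 libraries the values were 152, 157 and 147 CPM in Ctrl, 434, 431 and 443 CPM in HS, and 401, 345 and 268 CPM in HS+REC. The HS libraries lay above all others in both arms. PPP1R15A thus rose 3.65-fold and 2.87-fold with HS (adjusted p 1.85e-13 and 5.25e-12) and then fell by 0.41 ± 0.09 and by 0.37 ± 0.09 on the log2 scale (adjusted p 0.00138 and 0.00309).

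CHAC1, at chr15:40952962-40956512, encodes an enzyme that degrades glutathione and is a target of ATF4 and CHOP. It changed more than any of the other 9 after recovery. Scramble libraries held 6.74, 6.29 and 5.96 CPM in Ctrl, 65.2, 57.7 and 55.9 CPM in HS, and 122, 142 and 151 CPM in HS+REC. The siLonp1 libraries held 3.49, 4.77 and 3.91 CPM in Ctrl, 90.1, 74.2 and 79.2 CPM in HS, and 179, 147 and 116 CPM in HS+REC. Only the HS+REC libraries of the 2 arms overlapped with each other. From Ctrl to HS+REC the gene rose 21.8-fold in scramble (4.45 ± 0.14, adjusted p 1.03e-17) and 36.2-fold in siLonp1 cells (5.18 ± 0.15, adjusted p 1.19e-18). Its promoter window is one of the pair printed above.

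ASNS, at chr7:97851677-97872542, encodes asparagine synthetase and is the textbook target of ATF4 when amino acids run short. It followed the siRNA more than the heat. Scramble libraries held 191, 198 and 151 CPM in Ctrl, 115, 139 and 118 CPM in HS, and 157, 202 and 139 CPM in HS+REC. The siLonp1 libraries held 336, 333 and 351 CPM in Ctrl, 345, 343 and 286 CPM in HS, and 332, 385 and 316 CPM in HS+REC. Every siLonp1 library was above every scramble library, while within each arm neighbouring conditions overlapped in order of their means. In scramble cells ASNS fell with HS by 0.53 ± 0.12 on the log2 scale (adjusted p 0.000818) and rose again in HS+REC by 0.42 ± 0.12 (adjusted p 0.00832). That second change was 0.25 with an adjusted p of 0.113 without HS+REC scramble replicate 2. In siLonp1 cells the changes from Ctrl were -0.07 ± 0.11 in HS and 0.02 ± 0.11 in HS+REC, with adjusted p of 0.665 and 0.919. The ASNS promoter is the other printed above, and with HS in scramble cells 1 of these 2 genes rose and the other fell.

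SESN2 and DDIT4 encode sestrin 2 and REDD1, which both hold back the growth kinase complex mTORC1. SESN2, at chr1:28259518-28282491, had scramble levels of 11.4, 10.5 and 11.5 CPM in Ctrl, 48.7, 45.9 and 37.7 CPM in HS, and 126, 117 and 130 CPM in HS+REC. Its siLonp1 levels were 5.04, 4.65 and 6.74 CPM in Ctrl, 39.8, 38.4 and 38.8 CPM in HS, and 126, 114 and 100 CPM in HS+REC. The conditions were apart in both arms, and the arms were apart only in Ctrl. SESN2 rose 11.2-fold from Ctrl to HS+REC in scramble and 20.7-fold in siLonp1 cells (adjusted p 8.41e-18 and 3.97e-19), of which 2.82-fold and 2.91-fold came after HS.

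DDIT4, at chr10:72273919-72276036, had the largest change by HS among the 10. Scramble levels were 21.2, 18.5 and 16.9 CPM in Ctrl, 303, 284 and 267 CPM in HS, and 199, 249 and 268 CPM in HS+REC. The siLonp1 levels were 11, 15.6 and 15 CPM in Ctrl, 400, 356 and 348 CPM in HS, and 258, 214 and 147 CPM in HS+REC. All heated libraries lay far above Ctrl, and HS lay above HS+REC without overlap in siLonp1 cells only. The rise by HS was 15.1-fold in scramble and 26.5-fold in siLonp1 cells (adjusted p 3.99e-15 and 1.72e-16). Per kilobase of transcript DDIT4 was near PPP1R15A in HS scramble cells (163 and 178 CPM per kilobase), from 10.8 and 48.8 in Ctrl. From HS to HS+REC DDIT4 then fell in siLonp1 cells by 0.83 ± 0.14 on the log2 scale (adjusted p 5.64e-05).

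VLDLR, at chr9:2621182-2660056, encodes the very low density lipoprotein receptor, which ATF4 signalling can raise. It was the late gene of the group. Scramble libraries held 6.27, 6.96 and 6.10 CPM in Ctrl, 5.84, 6.23 and 5.72 CPM in HS, and 16.5, 18.8 and 15.5 CPM in HS+REC. The siLonp1 libraries held 4.61, 5.44 and 4.55 CPM in Ctrl, 3.42, 4.50 and 4.23 CPM in HS, and 19.8, 23.2 and 17.8 CPM in HS+REC. The HS+REC libraries stood apart from the rest in both arms. HS gave changes of -0.12 ± 0.12 and -0.27 ± 0.13 on the log2 scale (adjusted p 0.457 and 0.101), and from HS to HS+REC VLDLR rose 2.85-fold and 5.00-fold (adjusted p 2.95e-10 and 3.07e-13). The antisense transcript VLDLR-AS1 overlaps it, at 0.766 CPM.

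Silencing of Lonp1 at 37 °C split the 10 genes. ASNS (0.92 ± 0.12 on the log2 scale), PPP1R15A (0.41 ± 0.09) and ATF5 (0.28 ± 0.08) were higher in siLonp1 than in scramble cells. SESN2 (-1.02 ± 0.12), CHAC1 (-0.64 ± 0.16), DDIT3 (-0.47 ± 0.11), DDIT4 (-0.44 ± 0.16), VLDLR (-0.41 ± 0.12) and ATF4 (-0.23 ± 0.05) were lower. So 3 rose and 6 fell, against 26.3% and 22.9% of all genes, and TRIB3 was not called (-0.02 ± 0.07, adjusted p 0.867). The median was -0.32 for the 10 and 0.01 for all genes. The 2 arms did not overlap for 9 of the 10, and the share of all genes without overlap was not counted. SESN2 was thus 2.03-fold lower and ASNS 1.89-fold higher in siLonp1 cells, with adjusted p of 3.95e-07 and 7.55e-07. The call of DDIT4 (adjusted p 0.0291) was lost without Ctrl scramble replicate 1 (0.122), Ctrl scramble replicate 2 (0.0520) or Ctrl siLonp1 replicate 1 (0.174), and that of ATF5 without Ctrl siLonp1 replicate 2 (0.0528).

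In HS the picture turned for some of them. ASNS (1.39 ± 0.12), CHAC1 (0.44 ± 0.11), DDIT4 (0.37 ± 0.14), TRIB3 (0.32 ± 0.07) and ATF4 (0.24 ± 0.05) were higher in siLonp1 than in scramble cells, and VLDLR was lower (-0.55 ± 0.12). These 5 rises and 1 fall stood against 28.1% and 26.7% of all genes. The call of DDIT4 (adjusted p 0.0294) did not hold with DESeq2 (0.0834), by library size alone (0.0973), or without replicate 2 (0.0651) or 3 (0.104) of HS scramble or replicate 1 of HS siLonp1 (0.102). SESN2, at -0.18 ± 0.10 and an adjusted p of 0.116, passed as lower by library size alone (-0.28, adjusted p 0.0183) and without HS scramble replicate 3 (-0.29, adjusted p 0.0160). ATF5, at 0.18 ± 0.08 and an adjusted p of 0.0701, passed as higher with only the groups compared (0.18, adjusted p 0.038). It also passed without HS scramble replicate 2 (0.23, adjusted p 0.0477).

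In HS+REC, ASNS (1.05 ± 0.12), TRIB3 (0.49 ± 0.07) and VLDLR (0.26 ± 0.10) were higher in siLonp1 cells and DDIT3 was lower (-0.23 ± 0.09). That is 3 and 1 of the 10, against 26.8% and 27.3% of all genes. These counts are near or below the share of all genes. The arms did not overlap for 2 genes, ASNS and TRIB3, and the share of all genes without overlap was not counted. The call of DDIT3 (adjusted p 0.0394) was lost without HS+REC scramble replicate 1 (0.0559), HS+REC scramble replicate 3 (0.130), HS+REC siLonp1 replicate 2 (0.0836) or HS+REC siLonp1 replicate 3 (0.249), and that of VLDLR (adjusted p 0.0314) without HS+REC scramble replicate 1 (0.0808), HS+REC scramble replicate 3 (0.124) or HS+REC siLonp1 replicate 2 (0.219). VLDLR also lost its call by library size alone (0.19, adjusted p 0.116) and DDIT3 (adjusted p 0.101) and VLDLR (0.0687) with only the groups compared. By library size alone ATF4 passed as lower (-0.12, adjusted p 0.0467), so that 2 were higher and 2 lower. PPP1R15A, at 0.10 ± 0.09, was called at 0.24 (adjusted p 0.00869) without HS+REC siLonp1 replicate 3, and DDIT4, at -0.21 ± 0.14, was called at -0.41 (adjusted p 0.0178) without HS+REC siLonp1 replicate 1. DDIT4 was also called with no filter on low counts (-0.21, adjusted p 0.0284). ATF5, at 0.20 ± 0.09, was called at 0.28 (adjusted p 0.0172) without HS+REC scramble replicate 1 and at 0.25 (adjusted p 0.0318) without HS+REC siLonp1 replicate 2. Among all genes called, the share higher in siLonp1 cells was 53.4% for Ctrl, 51.3% for HS and 49.6% for HS+REC, and by library size alone it was 39.2%, 35.0% and 37.4%. ASNS was called as higher in siLonp1 cells in all 3 conditions under both scalings.

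**Figure D3:**
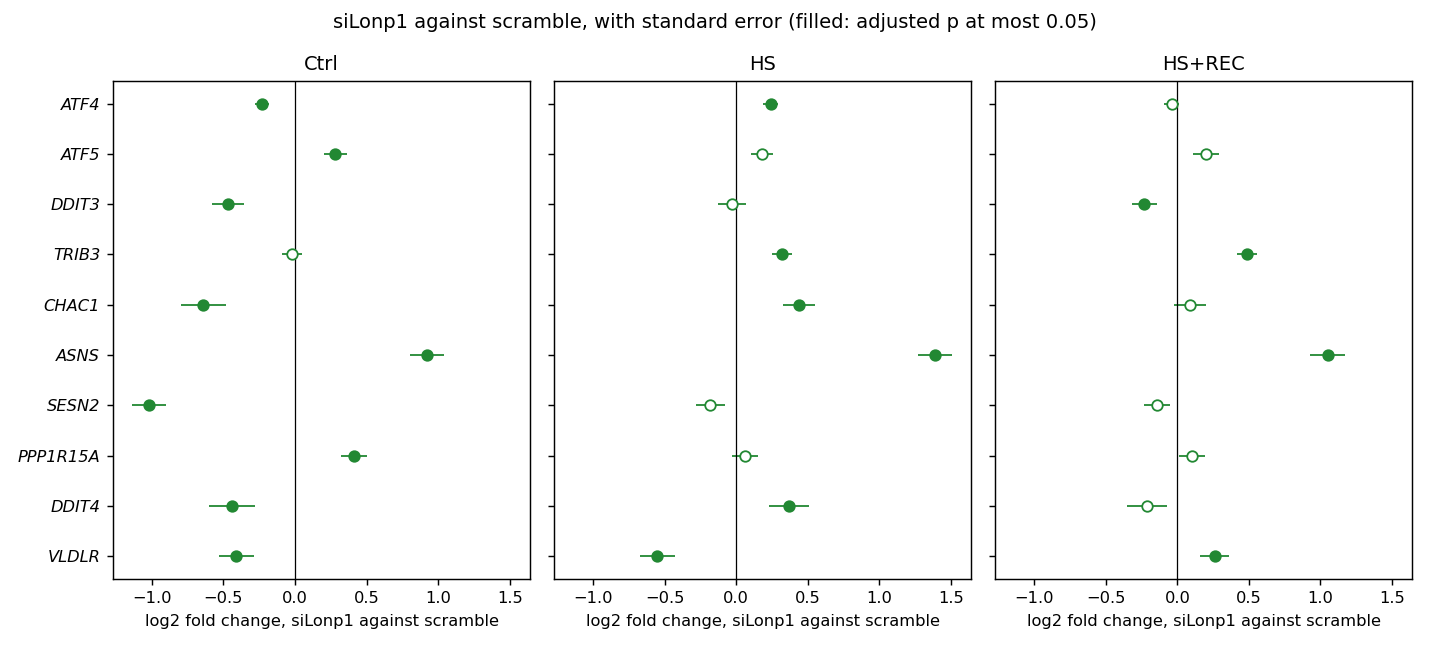
Difference between siLonp1 and scramble cells on the log2 scale for each gene in Ctrl, HS and HS+REC; points are estimates from 3 libraries per group, lines the standard error, and filled points an adjusted p of at most 0.05. ASNS lay to the right in all panels (0.92, 1.39 and 1.05), whereas CHAC1 and ATF4 moved from the left side in Ctrl to the right side in HS, and SESN2 moved from -1.02 to -0.18.

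Whether heat acted more strongly in cells with silenced Lonp1 was tested by the interaction of siRNA and condition. The change by HS was larger in siLonp1 cells for CHAC1 (by 1.08 ± 0.20 on the log2 scale, adjusted p 0.00497), SESN2 (0.84 ± 0.16, adjusted p 0.00537) and ATF4 (0.48 ± 0.07, adjusted p 0.000907). That is 3 of the 10 genes with a positive interaction and 0 with a negative one, against 0.475% and 1.39% of all genes tested. In HS+REC the change was larger for SESN2 (0.89 ± 0.15, adjusted p 0.00374), TRIB3 (0.50 ± 0.10, adjusted p 0.00872) and VLDLR (0.67 ± 0.16, adjusted p 0.0262), again 3 and 0, against 0.686% and 0.896% of all genes. At an unadjusted p under 0.05 in edgeR, 1 gene, PPP1R15A, had a negative interaction with HS (-0.35 ± 0.13) and with HS+REC (-0.30 ± 0.13), and DESeq2 called 0 negative ones. PPP1R15A did pass as a smaller change by HS in siLonp1 cells with only the groups compared (-0.36, adjusted p 0.0044) and with no filter on low counts (-0.35, adjusted p 0.0316). For HS+REC it passed without HS+REC siLonp1 replicate 1 (-0.45, adjusted p 0.049).

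The levels behind these differences were not alike. SESN2 was lower in siLonp1 cells before heat (5.48 against 11.1 CPM) and not called different in HS (39.0 against 44.1 CPM) or HS+REC (113 against 125 CPM). CHAC1 and ATF4 were lower in siLonp1 cells in Ctrl and higher in HS. TRIB3 began at the same level, 92.8 against 93.9 CPM, and ended at 262 against 187 CPM in HS+REC. The call of VLDLR was lost when any of 6 libraries was left out, namely Ctrl scramble replicates 1 and 2, Ctrl siLonp1 replicates 1 and 3, HS+REC scramble replicate 1 and HS+REC siLonp1 replicate 2, with adjusted p from 0.0580 to 0.0948. The other 5 calls held in each fit that lacked 1 library. DDIT4 missed the threshold with an interaction of 0.81 ± 0.22 in HS (adjusted p 0.0526) and passed it when only the 4 groups concerned were fitted (0.80, adjusted p 0.00265). ASNS, with an interaction of 0.46 ± 0.16 in HS (adjusted p 0.152), passed in that fit (0.45, adjusted p 0.0484) and with no filter on low counts (adjusted p 0.00222). LONP1 itself differed between the heated siLonp1 groups, as given above, and the part of this in the interactions was not tested.

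Other genes of the pathway, in lists written by hand, were read for how many of their members passed the same test. The list of 22 genes that control eIF2 holds its kinases, phosphatase subunits, subunits and exchange factor, and regulators such as GCN1, OMA1 and DELE1. Of the 22, 5 rose and 3 fell with HS in scramble cells, with a median log2 fold change of 0.01. All genes had 18.6% and 17.3%, so these shares were near the background. EIF2AK3, the kinase of the endoplasmic reticulum, rose by 0.55 ± 0.07 from 26.1 to 38.1 CPM, and PPP1R15B, the constitutively made counterpart of PPP1R15A, rose by 0.45 ± 0.07 from 80.4 to 110 CPM. EIF2B5, a subunit of the exchange factor, rose by 0.31 ± 0.05. With siLonp1 in Ctrl, 6 of the 22 rose and 4 fell, again near the 26.3% and 22.9% of all genes. PPP1R15B was higher by 0.39 ± 0.07, OMA1 went from 13.3 to 8.13 CPM (-0.71 ± 0.09) and GCN1, the activator of an amino acid sensing kinase, fell by 0.48 ± 0.08. Named after its value was seen, KIAA0141, the older symbol of DELE1, was higher by 0.33 ± 0.06 (adjusted p 0.000145). EIF2AK1, the haem-sensing kinase, was not called (0.03 ± 0.05, adjusted p 0.632). By library size alone 5 rose and 6 fell with HS and 5 and 5 with siLonp1 in Ctrl, and the medians turned from 0.01 to -0.02 and from 0.04 to -0.04.

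ATF4 works with other factors, most of them leucine zipper proteins that can pair with it or with each other, and the list of 6 also holds NUPR1, a small chromatin protein of the stress response. With HS in scramble cells 4 of the 6 rose and 1 fell, where 18.6% and 17.3% of all genes did. ATF3 rose from 5.64 to 21.6 CPM (1.93 ± 0.18) and CEBPB from 8.77 to 17.8 CPM (1.02 ± 0.16), and NUPR1 fell from 3.25 to 2.13 CPM (-0.60 ± 0.16). From HS to HS+REC, 5 of the 6 rose and 0 fell in scramble cells, against 14.2% and 12.7% of all genes. With siLonp1 in Ctrl 1 of the 6 fell, NUPR1 (-0.89 ± 0.16), and 1 rose, CEBPG (0.21 ± 0.06), against 22.9% and 26.3% of all genes. By library size alone 0 of the 6 rose and 2 fell. Named after their values were seen, CEBPB (0.87 ± 0.22), JDP2 (0.57 ± 0.11) and CEBPG (0.32 ± 0.08) had a larger change by HS+REC in siLonp1 cells, with adjusted p of 0.0486, 0.00755 and 0.0389, where 0.686% of all genes did. NUPR1, chosen in the same way, was the 1 of the 6 with a larger change by HS (1.02 ± 0.23, adjusted p 0.0199), where 0.475% of all genes did.

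Of 17 genes of amino acid uptake and synthesis, to which ASNS is close in function, 2 rose and 4 fell with HS in scramble cells, where 18.6% and 17.3% of all genes did. From HS to HS+REC 10 rose and 0 fell, where 14.2% and 12.7% of all genes did. The transporter gene SLC38A2 and SLC3A2, the heavy chain of several transporters, were the pair that rose with HS, by 0.60 ± 0.09 and 0.61 ± 0.07. SLC38A2 stood at 334 CPM in Ctrl, 507 CPM in HS and 1210 CPM in HS+REC, and SLC3A2 at 327, 501 and 676 CPM. PSAT1, an enzyme of serine synthesis, fell by 0.41 ± 0.07 with HS. With siLonp1, 9 of the 17 were higher and 1 lower in Ctrl (all genes, 26.3% and 22.9%), 9 and 1 in HS (28.1% and 26.7%), and 13 and 1 in HS+REC (26.8% and 27.3%). CBS (0.79 ± 0.13) and the transporter gene SLC1A4 (0.43 ± 0.07) were higher in Ctrl, and CTH, the enzyme after CBS in cysteine synthesis, was lower (-0.53 ± 0.11). PSPH, named after its values were seen, was the 1 of the 17 with a larger change in siLonp1 cells. The interaction was 0.39 ± 0.09 with HS (adjusted p 0.017) and 0.37 ± 0.08 with HS+REC (adjusted p 0.0244). Positive ones were called for 0.475% and 0.686% of all genes.

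The tRNA synthetase genes with the export factor XPOT, 12 in all, were read next. With HS in scramble cells 0 rose and 3 fell (EPRS, GARS and MARS, by 0.19 ± 0.07, 0.18 ± 0.06 and 0.17 ± 0.07), against 18.6% and 17.3% of all genes. From HS to HS+REC 10 rose and 0 fell, against 14.2% and 12.7%. HS+REC was above Ctrl for 7 of the 12 in scramble cells and for 11 of the 12 in siLonp1 cells (all genes, 21.8% and 24.6%), and by library size alone for 3 and 8. With siLonp1 in Ctrl, 5 were higher, WARS (0.46 ± 0.06) and SARS (0.40 ± 0.06) among them, and 2 lower, AARS (-0.30 ± 0.06) among them, against 26.3% and 22.9% of all genes. By library size alone 3 were higher and 3 lower. The counts of 0 given for this list and for the partner and amino acid lists in edgeR with TMM scaling were also 0 at an unadjusted p under 0.05 and by DESeq2. MARS, the file's symbol for MARS1, is the gene that lies opposite DDIT3.

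Of 9 further targets of ATF4 or CHOP, 6 rose and 1 fell with HS in scramble cells, where 18.6% and 17.3% of all genes did. VEGFA rose from 33.5 to 57.1 CPM (0.77 ± 0.06), STC2 from 86.0 to 137 CPM (0.67 ± 0.07) and the secreted stress cytokine GDF15 from 44 to 56.3 CPM (0.36 ± 0.09). GDF15 was also higher with siLonp1 in Ctrl (0.52 ± 0.09), as was the autophagy gene MAP1LC3B (0.54 ± 0.07), and KLHL24 was lower (-0.41 ± 0.12), with 4 higher and 2 lower in all (all genes, 26.3% and 22.9%). FGF21, the tenth gene listed, had at most 101 counts and was not tested.

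The other arms of the response to misfolded protein in the endoplasmic reticulum, run by ATF6 and XBP1, were read in the same way. With HS in scramble cells 2 of 16 genes rose and 5 fell, where 18.6% and 17.3% of all genes did. HSPA5, the main chaperone of that compartment, fell from 719 to 521 CPM (-0.47 ± 0.05) and EDEM1 by 0.38 ± 0.07, while ERN1, the sensor that splices XBP1, rose from 8.51 to 13.7 CPM (0.70 ± 0.14). From HS to HS+REC 7 of the 16 rose and 0 fell in scramble cells, against 14.2% and 12.7% of all genes. In siLonp1 cells 6 rose and 0 fell, against 16.3% and 15.6%. With siLonp1 in Ctrl 7 of the 16 were higher and 2 lower (all genes, 26.3% and 22.9%), and by library size alone 4 and 2. HERPUD1 was lower (-0.79 ± 0.08), whereas HYOU1 (0.43 ± 0.06) and SEL1L (0.27 ± 0.07) were higher. HERPUD1 then rose more by HS in siLonp1 cells (interaction 0.75 ± 0.11, adjusted p 0.000525), from 39.7 to 81.8 CPM against 68.7 to 84.5 CPM in scramble cells. This interaction was named after its value was seen, and it was the 1 called among the 16, where 0.475% of all genes had a positive one.

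**Figure D4:**
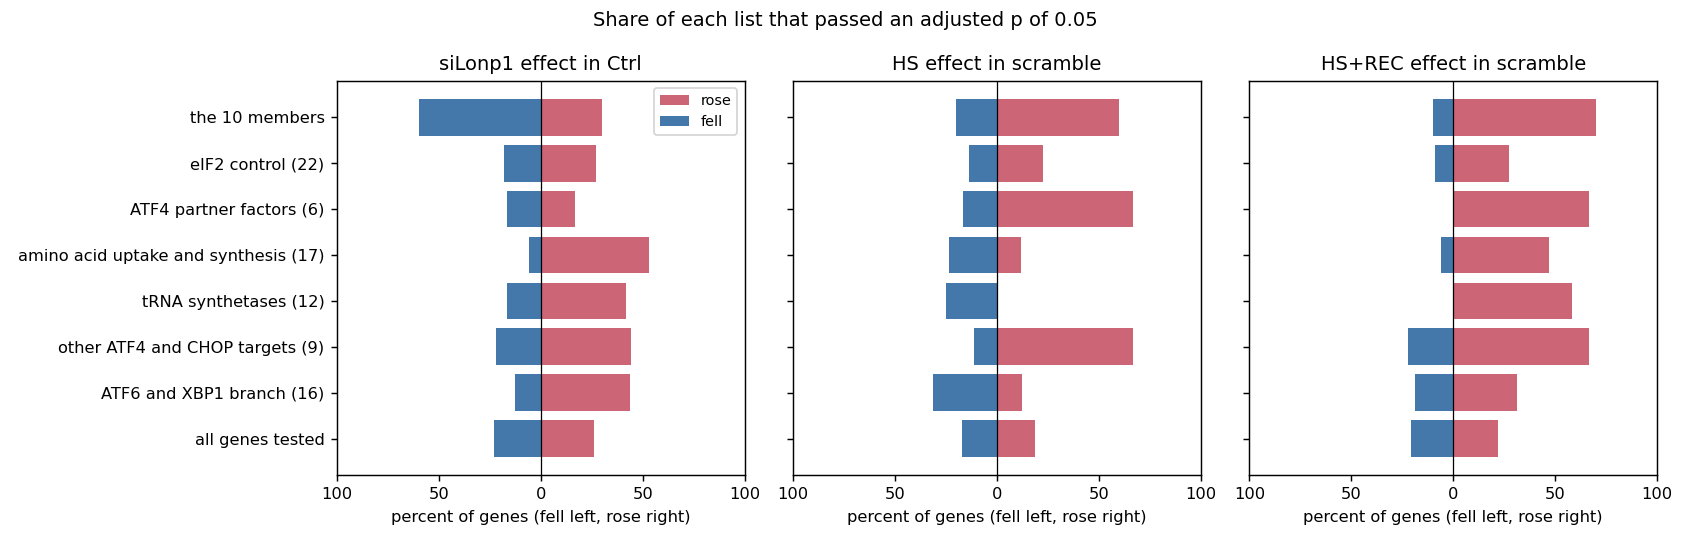
Share of the 10 genes, of each list and of all genes tested that rose (bars to the right) or fell (bars to the left) at an adjusted p of at most 0.05, in percent, with the number of genes tested in brackets; the panels are siLonp1 in Ctrl, HS in scramble cells and HS+REC in scramble cells. With HS, 6 of the 10 genes and 6 of 9 further targets rose but 0 of 12 tRNA synthetase genes, and in HS+REC 7 of those 12 were above Ctrl.

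By their pattern over the 18 libraries the 10 genes fell along different lines, given here as Pearson r of log2 CPM with no test, since the libraries share groups and scaling. DDIT3 was most like SESN2 (r = 0.98), CHAC1 like DDIT3 (0.978), and PPP1R15A like DDIT4 (0.962). ASNS was not close to any of the other 9, with TRIB3 the nearest at 0.269. ATF5 ran against 8 of the others, SESN2 most (-0.96). Among the 10405 genes with a mean of at least 5 CPM outside the 10, the closest were ZFAND2A for CHAC1 (0.995), KIAA0907 for DDIT4 (0.993), NUDT9 for SESN2 (0.991), TUBB4B for ATF5 (0.986), MBP for VLDLR (0.985) and EPC1 for PPP1R15A (0.983). Those for DDIT3, TRIB3, ASNS and ATF4 were RNF216P1 (0.981), JDP2 (0.975), LAT2 (0.974) and SPIN3 (0.884).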

How the data were processed

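The authors extracted RNA, prepared stranded mRNA libraries, aligned paired-end reads to hg38 with STAR 2.7.3a and counted them on UCSC genes with featureCounts in R 3.6.3. The deposited values are raw counts per gene symbol with no normalization. The strand setting, the handling of multi-mapping reads and the annotation release are not given in the sources used here. Each of the 18 columns was matched to its sample by name, and 0 columns belonged to no sample. A gene was tested if 3 or more libraries held it at over 1 CPM. CPM used TMM scaled library sizes. All 6 groups entered 1 model in edgeR 4.0.16 (R 4.3.3), tested by the quasi-likelihood test, with Benjamini-Hochberg adjustment over 12832 genes. A check on simulated counts gave every gene the same spread, which these data need not have, so nothing is concluded from it here. Rose or fell means an adjusted p of at most 0.05 at any fold. Standard errors are log2 fold changes over the root of F. The study's further limit of a fold change above 2 was an alternative, as was DESeq2 1.42.0. Gene positions are from GENCODE on hg38. The members and lists were chosen with earlier results of these data known. All 10 members and LONP1 are named, with up to 3 called genes of each list with the largest change by siLonp1 in Ctrl and by HS in scramble cells. The labels do not say whether equal replicate numbers pair the samples, and the main model did not pair them. No pair of replicates agreed within counting error (lowest chi-square over its degrees of freedom, 3.62).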

Additional observations from a re-analysis of the deposited data

Results flagged for a closer look

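The change by heat differed between the siRNA arms, by a test of the interaction in edgeR, for 6 combinations of gene and condition. In HS it was larger in siLonp1 cells by 0.48 for ATF4, 1.08 for CHAC1 and 0.84 for SESN2 on the log2 scale. In HS+REC it was larger by 0.50 for TRIB3, 0.89 for SESN2 and 0.67 for VLDLR.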

How the results depend on the processing

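Of 1770 values of the 10 genes fitted again, 1663 kept their side of the threshold, 79 lost a call (42 of them by the limit of a fold change above 2), 28 gained one, and 0 of the called values turned. Among the 1663, 11 values with no call in either fit changed sign. A fold change above 2 left 1 member in each of the 3 siLonp1 comparisons, against 535, 535 and 536 of all genes. It left 5 for HS in each arm, against 424 genes in scramble and 587 in siLonp1 cells. For HS+REC against Ctrl it left 6 in scramble and 8 in siLonp1 cells, against 572 and 733 genes. From HS to HS+REC it left 3 in scramble and 2 in siLonp1 cells, against 244 and 330. The interactions with HS and HS+REC kept 1 and 0, against 18 and 14. siLonp1 in HS+REC gave 2 members at an adjusted p of at most 0.01, 2 with only the groups compared, and 2 to 5 with each library left out, the 2 without HS+REC scramble replicate 3. The interaction with HS gave 7 members with no filter on low counts and 6 with only the groups compared, and in both PPP1R15A was called as the 1 with a smaller change in siLonp1 cells (-0.35 and -0.36). DESeq2 also called TRIB3 in the interaction with HS (0.34, adjusted p 0.0398) and CHAC1 in that with HS+REC (0.75, adjusted p 0.00527). Over all genes the interaction with HS gave 240 calls, and 497 with no filter, 735 with only the groups compared, 421 by DESeq2 and 80 at 0.01, and the interaction with HS+REC gave 203, and 385, 317 by DESeq2 and 57. With 1 library left out, the interaction with HS gave from 98 calls (without HS scramble replicate 1) to 526 (without HS scramble replicate 3), and that with HS+REC gave as few as 96 (without HS+REC scramble replicate 1). The cause of these differences was not tested. Deviations of same-numbered libraries from their group means had a median correlation of -0.0222 (45 correlations from -0.379 to 0.462, 10 above 0.1). A fit with the replicate number as a block called 9 members in place of 8 for HS in siLonp1 cells, the gain being VLDLR (-0.26, adjusted p 0.0368), left the other member counts as they were, and took the calls over all genes from 240 to 180 for the interaction with HS. The fewest counts behind any member value were 133, for VLDLR, and the largest standard error of a member's interaction was 0.22, for DDIT4.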
